A study of Sus scrofa with 23 samples.

Results

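The genes described here are the DNA repair genes of a table of porcine oocyte and preimplantation embryo expression, 52 of its 8603 genes. They were chosen by symbol alone, as MutS and MutL homologues, BRCA1 and BRCA2, and the genes named RAD, XRCC, FANC, ERCC, LIG, PARP, RPA and RFC with a number or letter, with EXO1 and PCNA. A further 22 symbols that match these names, PCNA, PMS2, MSH5, ERCC1, RAD52 and RAD54L among them, are absent from the table. Polyadenylated RNA had been sequenced from 23 pools of oocytes or embryos, 1 library for each condition. The IV-D group (8 libraries) held MII oocytes matured in vivo and embryos flushed from the uteri of Duroc sows inseminated from a single Duroc boar. The NT-D group (8 libraries) held embryos cloned by somatic cell nuclear transfer from ear fibroblasts of that Duroc boar, a yearling, and the NT-LW group (7 libraries) held clones from ear fibroblasts of a yearling Laiwu boar, a Chinese breed. Both kinds of clone were made in enucleated oocytes of hybrid sows matured in vitro from slaughterhouse ovaries, and the library of those oocytes stood as the oocyte stage of NT-D. Clones were kept in PZM3 medium under low oxygen, whereas in vivo embryos were never cultured, so nuclear transfer, oocyte source and culture cannot be told apart. Each group had cleavage stages (1-cell, 2-cell, 4-cell, 8-cell), a morula library and 2 blastocyst parts, IT (inner cell mass with trophectoderm) and TE (trophectoderm alone). Each clone group came from 1 donor line, and all clones carried a male donor genome.

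DNA repair is divided among pathways that read different lesions. Mismatch repair corrects replication errors, homologous recombination copies an intact strand across a double-strand break, the Fanconi anaemia proteins open crosslinks, nucleotide excision repair removes bulky lesions, and ADP-ribosylation marks single-strand breaks for ligation. An oocyte stores many of these transcripts for the first cleavages, when the embryo divides without transcribing most of its own genes. In the pig the embryonic genome is activated and the maternal store cleared mainly between the 4-cell and the 8-cell stage.

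Values were FPKM, fragments scaled by gene length and library size, and genes were compared on log2(FPKM + 1), which understates the change of low genes. The table's genes held 9890197 to 17804698 fragments per library (median 14538088), and a count of 0 allows up to 3 fragments, counting error alone. With no replicate, a step between stages was tested with limma over the 3 embryo groups against their disagreement, and an embryo group over 7 stages. Such p-values say nothing of the spread between pools of one kind. All 52 members passed the filter of a mean FPKM of at least 1 among the 8118 genes tested. Library labels were read against markers. The sum of 8 oocyte transcripts lay between 1080 and 4327 FPKM up to the 4-cell stage and between 1.04 and 262 from the 8-cell stage on. Fibroblast markers (6 genes) summed to 67.4 to 145 in the clones from the 1-cell to the 4-cell stage and to 65.6, 3.24 and 5.48 in the 1-cell, 2-cell and 4-cell IV-D libraries. Most of each of these clone sums was S100A4, at 48.2 to 114 FPKM. The IV-D 1-cell library, of embryos that received no fibroblast, also had S100A4 at 39.9 FPKM. It was at 0 in IV-D oocytes and 0.12 in IV-D 2-cell embryos. The source of these transcripts in the IV-D 1-cell library was not tested. Cumulus markers (2 genes) summed to at most 19.6, in NT-LW 4-cell embryos. In IT and TE, inner cell mass markers (5 genes) summed to 102 and 2.13 in IV-D, 20.7 and 6.85 in NT-D and 19.9 and 8.08 in NT-LW, and trophectoderm markers (6 genes) to at least 1007 in every blastocyst library. KRT8 and KRT18 made up most of the trophectoderm sums, with 626 and 627 FPKM in IV-D IT. From the same list EHF went the other way, at 0.0871 to 2.69 FPKM in IT and TE and 42.4 to 48.6 in 4-cell libraries. TEAD4 was lower in TE than in the morula of each group. The inner cell mass markers summed to 408, 103 and 183 in the 4-cell libraries of IV-D, NT-D and NT-LW, above every IT library. In bulk pools, fewer cells of a type and less RNA per cell cannot be told apart.

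Taken as a sum, the repair transcripts were highest in the first library of each group and lowest in a blastocyst part, as the plot of members by library shows gene by gene. The summed FPKM of the 52 members was 2048.5 in IV-D oocytes, 1255 in IV-D 4-cell embryos, 1657 in IV-D 8-cell embryos and 786 in IV-D TE. It was 706 in NT-D IT and 673 in NT-LW TE, the latter 0.0976% of the FPKM of all genes of the table against 0.428% in IV-D oocytes. From 44 to 52 members had at least 1 FPKM in a library. The median over the 11 libraries up to the 4-cell stage was above that over the 12 later ones for 35 members and below it for 17. No share of all genes was taken for this split, so it is not read as a trait of the members. In 44 members the ranges of early and late libraries overlapped. They were apart, with every early library higher, in 6 members (BRCA2, FANCL, LIG3, MSH3, PARP12 and PARP14), against 13.4% of all genes, and with every late library higher in 2 members (MSH4 and PARP2), against 15.3% of all genes.

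**Figure D1:**
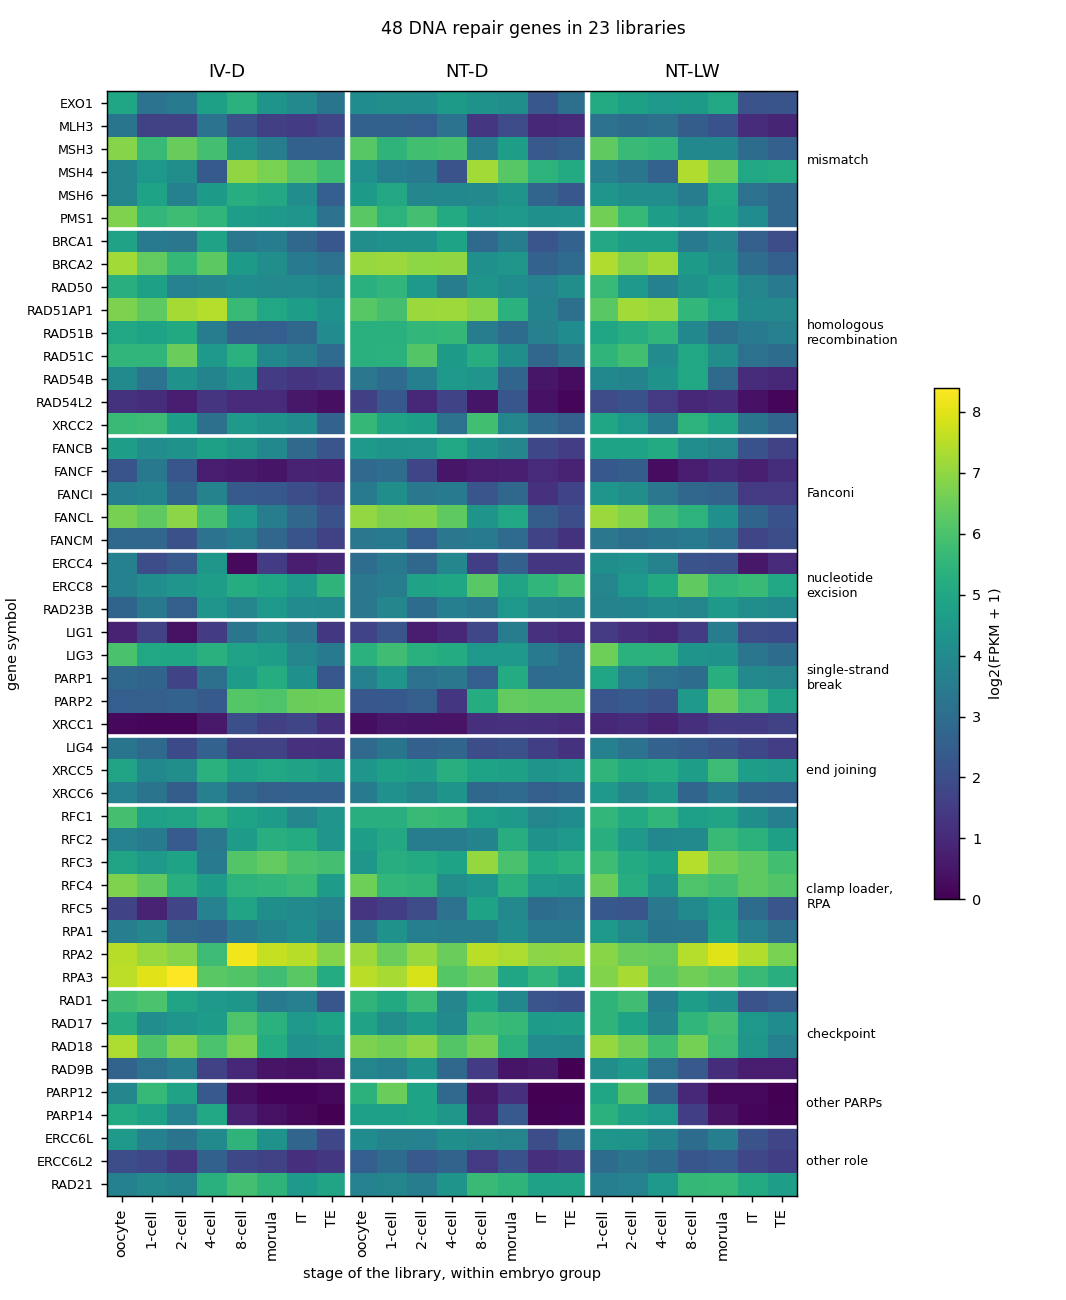
Expression of 48 of the 52 DNA repair genes (rows, by role) in the 23 libraries (columns, by embryo group and stage) as log2(FPKM + 1), 1 library per column. PARP12 and PARP14 are near 0 in most of the columns from the 8-cell stage on, and MSH4 and PARP2 are higher there than in every earlier column.

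By limma's F test, 50 of the 52 members differed among the 7 stages at an adjusted p under 0.05, against 94.3% of all genes tested. XRCC5 (adjusted p = 0.23, limma) was among the 2 that did not pass. The name of the deposit points to differentially expressed genes, so members and background may have been picked for such changes. At the 4-cell to 8-cell step 15 members rose and 16 fell, 31 of 52 against 59.2% of all genes (32.4% higher and 26.8% lower). At the 2-cell to 4-cell step 3 rose and 10 fell, against 16.2% higher and 8.6% lower among all genes. At the 8-cell to morula step 4 rose and 4 fell (all genes 21%, with 14% higher and 6.92% lower). From the morula to IT 18 members fell and 0 rose (all genes 15.8%, with 4.36% higher and 11.5% lower). No member passed either from the 1-cell to the 2-cell stage (all genes 0.259%, with 0.037% higher and 0.222% lower) or between IT and TE (all genes 0.37%). At an unadjusted p under 0.05 there were 13 members at the former step, 25% beside 17.7% of all genes, and 3 at the latter, 5.77% beside 6.48%. The median of all genes moved too, by 0.12 at the 2-cell to 4-cell step, 0.16 at the 4-cell to 8-cell step and -0.41 at the morula to IT step. After median-ratio scaling, which divides such shifts out, the members' calls were 1 higher and 13 lower at the 2-cell to 4-cell step and 8 higher and 22 lower at the 4-cell to 8-cell step. Of all genes 14.4% were then higher and 16.1% lower at the former step, and 27.3% and 32.3% at the latter. The rises of RAD51C, RFC4, RFC5, ERCC8, RAD21, LIG1 and XRCC1 at the latter step were lost by this scaling. LIG3 and XRCC5 were among those newly called lower. Counts per pathway below are from the unscaled fit on few members and are not read as the direction of a pathway. At the 8-cell to morula step 2 members (LIG1 and PARP1) were higher with this scaling and 6 lower, beside 10.2% and 9.84% of all genes. In 13 members the 4-cell to 8-cell call held in every setting tried. Of these 13, MSH4, PARP2, RAD17, RFC3, RPA2 and XRCC2 were among the 8 that rose, and BRCA2, ERCC4, MSH3, PARP12 and PARP14 fell. The other 18 of the 31 calls were lost in at least 1 setting. Leaving out the NT-D libraries gave 15 calls in place of 31 at that step and 5 in place of 13 at the 2-cell to 4-cell step, which had 8 without NT-LW.

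**Figure D2:**
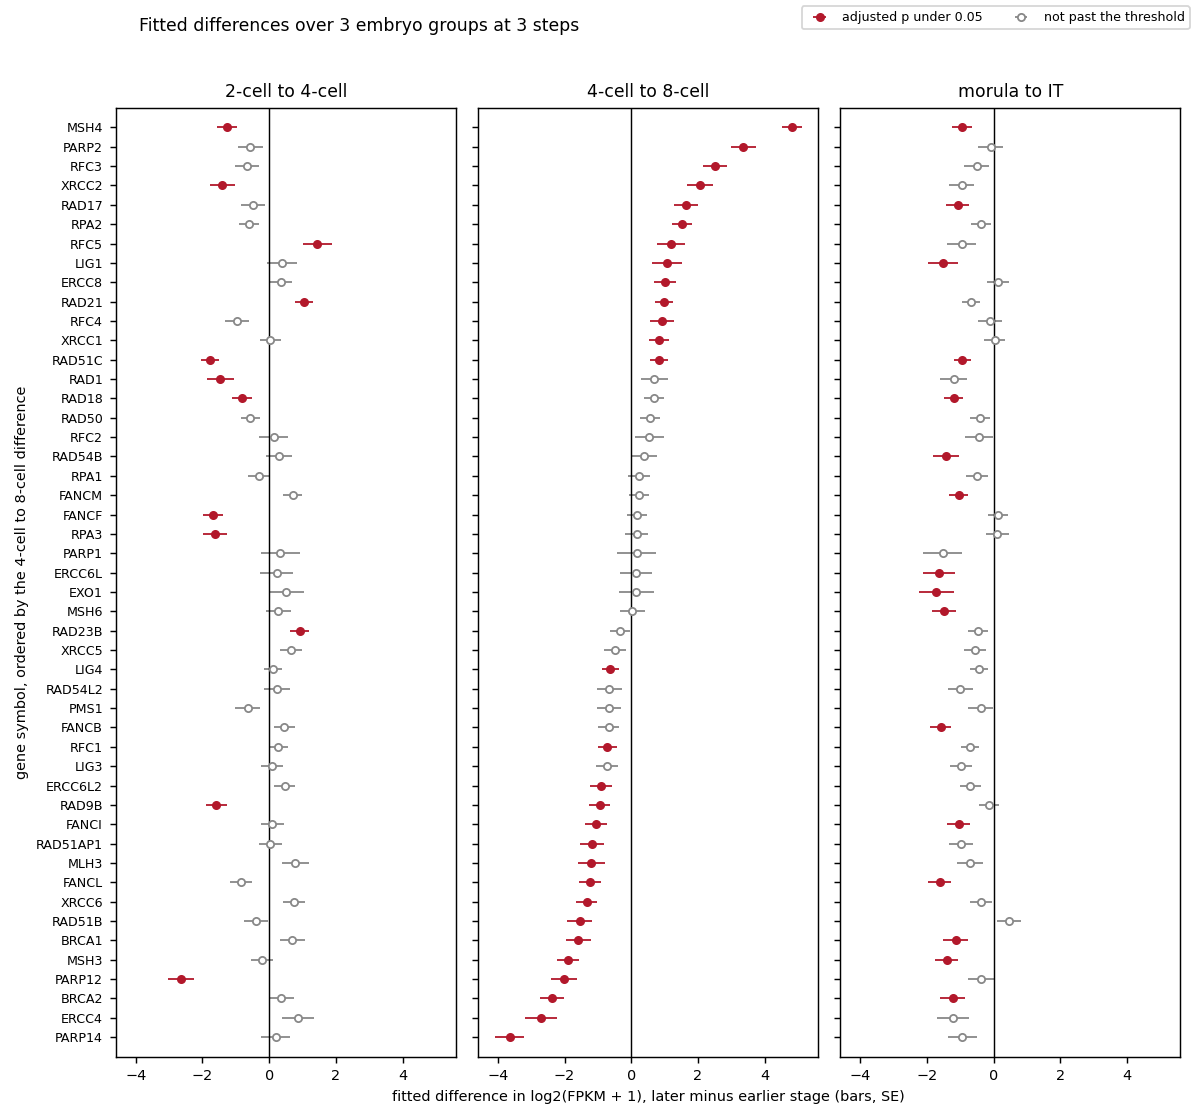
Fitted difference in log2(FPKM + 1) of 48 of the 52 members (later minus earlier stage, limma over 3 embryo groups, bars SE) at 3 steps, ordered by the 4-cell to 8-cell step, with members past an adjusted p of 0.05 filled. At the 4-cell to 8-cell step they run from -3.64 for PARP14 to 4.82 for MSH4, and the 16 filled members of the morula to IT panel all lie below 0.

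The promoters of the members that changed most in each direction at genome activation are shown here, MSH4 for the rise and PARP14 for the fall. Each is the 250 bases before the annotated start in RefSeq (Sscrofa11.1), 5′ to 3′ on the gene's strand, which was the minus strand for both. Capitals mark matches on either strand to any of 5 motifs. They are the CCAAT box, the GC box with the letters GGGCGG, the E2F motif with the letters TTTNNCGC, the TATA box with the letters TATAAA, and the interferon-stimulated response element.
MSH4 (chr6:137524460-137524709): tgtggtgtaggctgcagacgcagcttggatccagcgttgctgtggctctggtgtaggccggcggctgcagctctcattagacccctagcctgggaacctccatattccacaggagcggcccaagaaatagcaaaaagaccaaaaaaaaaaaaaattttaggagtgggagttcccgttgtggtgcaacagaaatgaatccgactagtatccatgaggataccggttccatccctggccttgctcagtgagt
PARP14 (chr13:137865384-137865633): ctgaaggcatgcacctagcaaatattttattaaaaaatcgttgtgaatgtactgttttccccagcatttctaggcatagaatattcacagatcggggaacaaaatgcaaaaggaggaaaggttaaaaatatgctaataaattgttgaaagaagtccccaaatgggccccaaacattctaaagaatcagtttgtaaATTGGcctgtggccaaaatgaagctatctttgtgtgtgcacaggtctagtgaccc
The MSH4 window held none of the 5 motifs. All 250 of its bases were soft-masked as repeat in the assembly, which was so for 40 of the 6838 promoters read (0.585%) and for 1 of 51 members' promoters. The PARP14 window held 1 reverse CCAAT, 51 bases before the start, and 60 masked bases. CCAAT was found in 34.4% of all promoters, the GC box in 57.1%, the E2F motif in 8.42%, TATAAA in 7.53% and the interferon motif in 2.52%. The MSH4 start comes from a predicted transcript model, and the table does not show which start embryos use.

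Mismatch repair had 8 members. MSH4, a MutS homologue that acts in meiotic crossing over rather than in mismatch correction, had the steepest rise of all members. MSH4 is ENSSSCG00000003775, on chromosome 6 from 137410820 to 137524459. In the order oocyte, 1-cell, 2-cell, 4-cell, 8-cell, morula, IT and TE, here and for every gene below (NT-LW without oocyte), its FPKM was 13.6, 21.3, 16.6, 4.24, 128, 103, 73.6 and 54.7 in IV-D, 18.2, 11.3, 10.3, 3.43, 149.5, 74.2, 42.1 and 34.5 in NT-D and 11.7, 8.88, 5.19, 167, 95.9, 31.99 and 34.6 in NT-LW. The lowest value of every group was the 4-cell one and the highest the 8-cell one. The fitted rise was 4.82 (SE 0.29, limma adjusted p = 1.88e-09), after -1.26 (SE 0.29, limma adjusted p = 0.00357) at the step before. MSH3, which reads insertion loops, went the other way. MSH3 is ENSSSCG00000014126, on chromosome 2 from 89255647 to 89456102. Its FPKM was between 43.6 and 117 in the early libraries and between 4.07 and 24.7 in the late ones. Every library up to the 4-cell stage was above every later one, and the difference at the 4-cell to 8-cell step was -1.91 (SE 0.33, limma adjusted p = 1.04e-04). MSH6, which reads single mismatches (ENSSSCG00000020931, chromosome 3, 92792590 to 92814154), was at 13.5, 28.2, 12.1, 22.8, 36.2, 32.5, 16.5 and 4.68 in IV-D, 22.8, 32.6, 13.8, 14.1, 14.5, 19.4, 5.66 and 3.805 in NT-D and 20.4, 17.1, 16.4, 10.4, 31.8, 7.703 and 5.92 in NT-LW. It did not pass at the 4-cell to 8-cell step, with 0.03 (SE 0.37, limma adjusted p = 0.954). MLH3, of the MutL proteins that cut after a mismatch is read, passed with -1.203 (SE 0.40, limma adjusted p = 0.0147), and PMS1 and EXO1 did not pass at this step. PMS1 (ENSSSCG00000016045, chromosome 15, 94351603 to 94476505) was at 109, 46.5, 53.8, 45.3, 24.6, 21.7, 20.4 and 8.04 in IV-D, 75.1, 42.4, 58.9, 34.1, 20.1, 21.8, 17.5 and 17.96 in NT-D and 96.2, 48.7, 25.3, 18.4, 28.3, 16.1 and 5.82 in NT-LW. Its highest value of each group was the first of the series, the oocyte in IV-D and NT-D and the 1-cell embryo in NT-LW. From the morula to IT 5 members of the list fell (all genes 11.5% lower), none of them with median-ratio scaling. EXO1, the exonuclease that removes the mispaired strand, was at -1.72 (SE 0.52, limma adjusted p = 0.0336) and MSH6 at -1.49 (SE 0.37, limma adjusted p = 0.0136).

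In homologous recombination 3 of 10 members rose and 4 fell from the 4-cell to the 8-cell stage (all genes 32.4% higher and 26.8% lower). XRCC2, which assembles with RAD51B and RAD51C at damaged DNA, rose at this step, by 2.06 (SE 0.38, limma adjusted p = 1.57e-04), and was lowest in TE in each group. XRCC2 is ENSSSCG00000032315, on chromosome 18 from 4808428 to 4834281. Its FPKM was 50.2, 52.5, 25.3, 7.58, 22.02, 18.8, 15.7 and 5.19 in IV-D, 46.9, 27.5, 24.5, 7.68, 57.6, 13.6, 6.597 and 4.87 in NT-D and 30.05, 21.2, 9.78, 41.9, 28.9, 8.35 and 5.66 in NT-LW. RAD51C, of the same complex (ENSSSCG00000023955, chromosome 12, 34975949 to 35018112), was at 45.4, 45.4, 88.5, 22.4, 40.5, 13.98, 10.6 and 6.66 in IV-D, 39.5, 40.02, 70.8, 22.7, 36.4, 17.2, 5.83 and 9.35 in NT-D and 43.7, 56.3, 15.6, 32.2, 16.8, 7.82 and 6.78 in NT-LW. It dropped at the 2-cell to 4-cell step (log2 difference -1.77, SE 0.27, limma adjusted p = 5.84e-05) from its highest value in each group. It then regained 0.83 (SE 0.27, limma adjusted p = 0.0122), a call lost with median-ratio scaling, and fell again to the morula (log2 difference -1.14, SE 0.27, limma adjusted p = 0.00566). BRCA2, a mediator of strand exchange (ENSSSCG00000029039, chromosome 11, 8805950 to 8858128), was at 150.2, 82.3, 47.1, 76.7, 22.999, 16.8, 10.02 and 7.78 in IV-D, 136, 141, 125, 128, 17.4, 20.9, 5.17 and 6.61 in NT-D and 167, 114, 147, 23.1, 17.2, 7.099 and 4.91 in NT-LW. The early libraries lay between 47.1 and 167 and the late ones between 4.91 and 23.1, and the 4-cell to 8-cell difference was -2.37 (SE 0.37, limma adjusted p = 2.99e-05). BRCA1, its companion in choosing the repair route, passed with -1.59 (SE 0.37, limma adjusted p = 0.00124). RAD51AP1, a cofactor of strand pairing, had the highest median FPKM of these transcripts. RAD51AP1 is ENSSSCG00000000722, on chromosome 5 from 65872277 to 65897210. Its FPKM was 106, 79.5, 154, 176, 51.01, 31.04, 24.6 and 19.02 in IV-D, 72.7, 60.1, 138, 144, 119.6, 40.1, 12.7 and 7.52 in NT-D and 74.8, 149, 136, 46.4, 32.2, 15.1 and 14.6 in NT-LW. The fitted difference was -1.19 (SE 0.36, limma adjusted p = 0.00842), and NT-D had 119.6 FPKM at the 8-cell stage where IV-D had 51.0 and NT-LW 46.4. RAD51B, of the same complex (ENSSSCG00000028877, chromosome 7, 91592413 to 92301383), was at 31.4, 28.2, 33.4, 10.6, 4.96, 4.73, 6.17 and 15.4 in IV-D, 39.6, 39.5, 45.8, 47.7, 10.4, 6.902, 11.6 and 15.9 in NT-D and 30.4, 36.9, 45.6, 14.2, 7.67, 10.3 and 11.6 in NT-LW. Both clone libraries at the 4-cell stage were above 45, where the IV-D library was at 10.6. RAD54B, a DNA motor of recombination (ENSSSCG00000024290, chromosome 4, 42249482 to 42369408), was at 14.8, 8.23, 18.8, 12.7, 19.03, 1.85, 1.43 and 1.78 in IV-D, 9.03, 6.74, 11.4, 22.03, 19.9, 5.64, 0.419 and 0.214 in NT-D and 13.98, 12.7, 18.8, 31.9, 6.49, 1.09 and 0.944 in NT-LW. It fell after the 8-cell stage (log2 difference -2.200, SE 0.39, limma adjusted p = 8.61e-04), the 1 call of that step that held in every setting. RAD54L2, an androgen receptor interacting relative of the motor (ENSSSCG00000011425, chromosome 13, 33771783 to 33890567), stayed at or below 3.93 in all libraries, with 1.35, 1.14, 0.575, 1.402, 1.01, 1.06, 0.454 and 0.282 in IV-D, 2.04, 3.93, 0.953, 2.29, 0.377, 3.77, 0.344 and 0.0737 in NT-D and 2.82, 3.3004, 1.71, 0.9604, 1.08, 0.321 and 0.0977 in NT-LW. RAD50, part of the complex that tethers broken ends, ranged from 10.4 to 50.3 and passed at no step.

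Of the 5 Fanconi anaemia members, 0 rose and FANCI and FANCL fell at the 4-cell to 8-cell step (all genes 32.4% higher and 26.8% lower). With median-ratio scaling FANCB was called lower too. FANCL, the ubiquitin ligase of the pathway (ENSSSCG00000008394, chromosome 3, 83136355 to 83436948), was at 101, 78.2, 122, 58.4, 22.5, 10.9, 5.87 and 3.27 in IV-D, 131, 105, 111, 78.6, 19.5, 31.6, 4.58 and 3.01 in NT-D and 139, 114, 56.2, 42.2, 17.6, 5.51 and 3.32 in NT-LW. Its difference was -1.23 (SE 0.34, limma adjusted p = 0.00431) at the 4-cell to 8-cell step and -1.62 (SE 0.34, limma adjusted p = 0.00543) from the morula to IT, and the latter held with median-ratio scaling. FANCB, a core subunit encoded on the X chromosome, ranged from 13.1 to 34.2 FPKM before the blastocyst and from 1.87 to 6.49 in IT and TE. Its morula to IT difference was -1.59 (SE 0.31, limma adjusted p = 0.00357), which also held with median-ratio scaling. FANCF, an adaptor of the core complex (ENSSSCG00000037501, chromosome 2, 36884701 to 36886661), fell a step earlier, with 3.54, 9.498, 3.698, 0.571, 0.511, 0.4005, 0.732 and 0.716 in IV-D, 6.34, 7.07, 2.3997, 0.411, 0.566, 0.676, 1.03 and 0.779 in NT-D and 3.92, 4.603, 0.215, 0.604, 0.922, 0.6798 and 1.13 in NT-LW. From the 4-cell stage on no library exceeded 1.13, and the 2-cell to 4-cell difference was -1.68 (SE 0.29, limma adjusted p = 2.60e-04). Of the exon bases of FANCF, 37.5% lie on those of GAS2 on the other strand, and the kit keeps no strand. Among the 51 members with a single RefSeq position, 15 share exon bases with another gene. FANCI, the protein that FANCL marks, and FANCM, the motor that finds the lesion, both fell from the morula to IT, with differences of -1.05 (SE 0.34, limma adjusted p = 0.0448) and -1.05 (SE 0.29, limma adjusted p = 0.0241).

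Nucleotide excision repair had 4 members, 1 of which rose and 1 fell at the 4-cell to 8-cell step (all genes 32.4% higher and 26.8% lower). ERCC4 (XPF), a subunit of the nuclease that cuts beside the lesion (ENSSSCG00000007881, chromosome 3, 29266234 to 29306109), was at 11.98, 2.92, 4.13, 20.6, 0.162, 1.79, 0.591 and 0.8897 in IV-D, 6.94, 9.47, 6.21, 13.7, 1.95, 5.03, 1.52 and 1.54 in NT-D and 17.3, 17.8, 12.5, 3.46, 3.23, 0.447 and 0.984 in NT-LW. Its IV-D value dropped from 20.6 at the 4-cell stage to 0.162 (9 fragments) at the 8-cell stage, and the fitted difference was -2.71 (SE 0.48, limma adjusted p = 1.10e-04). ERCC8 (CSA), of transcription-coupled repair (ENSSSCG00000016934, chromosome 16, 39704602 to 39770330), was at 11.9, 16.5, 19.99, 24.6, 35.9, 30.2, 22.4 and 43.5 in IV-D, 8.97, 10.9, 27.9, 29.6, 74.6, 28.7, 45.2 and 58.6 in NT-D and 13.1, 21.2, 33.7, 79.8, 44.9, 49.9 and 31.6 in NT-LW. It rose by 1.02 (SE 0.34, limma adjusted p = 0.0147), a call lost with median-ratio scaling, and had the highest median FPKM of the list. RAD23B, which steadies the lesion sensor and ferries ubiquitinated proteins (ENSSSCG00000005436, chromosome 1, 248447991 to 248493651), was at 5.46, 9.61, 4.89, 20.3, 13.1, 21.3, 15.5 and 14.8 in IV-D, 9.08, 13.7, 6.86, 11.4, 9.17, 21.4, 13.7 and 12.5 in NT-D and 12.5, 12.8, 14.9, 13.5, 21.998, 16.7 and 15.3 in NT-LW. It rose one step earlier, by 0.91 (SE 0.29, limma adjusted p = 0.0291), a call lost with median-ratio scaling and without any 1 embryo group.

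Among the 5 members of single-strand break and base excision repair, 3 rose (PARP2, LIG1 and XRCC1) and 0 fell at the 4-cell to 8-cell step. Of all genes 32.4% were higher there and 26.8% lower. With median-ratio scaling only PARP2 of this list was called higher, and LIG3 was called lower. PARP2, which senses nicks and adds ADP-ribose (ENSSSCG00000002143, chromosome 7, 78535072 to 78551393), was at 4.65, 4.83, 5.28, 4.26, 71.6, 67.6, 91.3 and 92.9 in IV-D, 3.89, 3.93, 4.87, 1.53, 36.2, 81.7, 79.5 and 78.5 in NT-D and 3.63, 4.22, 3.45, 22.4, 85.8, 53.7 and 27.3 in NT-LW. All 11 libraries up to the 4-cell stage were at 5.28 or less and all 12 later ones at 22.4 or more, and the rise was 3.35 (SE 0.38, limma adjusted p = 1.11e-06). PARP1, the main sensor of breaks (ENSSSCG00000023660, chromosome 10, 14203157 to 14241164), was at 6.01, 5.52, 2.27, 7.497, 23.2, 36.1, 17.6 and 3.84 in IV-D, 11.98, 19.9, 7.96, 9.35, 4.66, 35.3, 6.71 and 7.22 in NT-D and 30.01, 11.99, 7.68, 6.76, 37.6, 14.3 and 13.3 in NT-LW. It did not pass at the 4-cell to 8-cell step and rose at the next, by 1.87 (SE 0.59, limma adjusted p = 0.0307). LIG1, the ligase that seals replicated strands (ENSSSCG00000003128, chromosome 6, 53620483 to 53660020), was at 0.761, 2.09, 0.296, 1.76, 8.76, 13.8, 9.11 and 1.59 in IV-D, 2.197, 3.599, 0.584, 0.955, 2.43, 10.8, 1.3004 and 0.992 in NT-D and 1.72, 1.21, 0.907, 1.85, 10.9, 2.77 and 2.72 in NT-LW. It rose at both steps, by 1.07 (SE 0.45, limma adjusted p = 0.0483) and 1.48 (SE 0.45, limma adjusted p = 0.0257), and fell to IT (log2 difference -1.52, SE 0.45, limma adjusted p = 0.0305). LIG3, the ligase that works with the scaffold XRCC1 (ENSSSCG00000024770, chromosome 12, 40153105 to 40205077), was at 62.4, 31.7, 29.7, 39.5, 27.6, 24.4, 13.5 and 10.3 in IV-D, 40.1, 55.1, 39.03, 34.98, 21.5, 22.03, 9.76 and 7.21 in NT-D and 93.2, 40.3, 40.8, 19.5, 18.7, 8.88 and 6.91 in NT-LW. Every early library was above every late one, while the 4-cell to 8-cell difference of -0.74 (SE 0.33, limma adjusted p = 0.064) missed the threshold. XRCC1 was at or below 1.11 in all early libraries and between 1.01 and 3.16 in the later ones, and it rose by 0.83 (SE 0.31, limma adjusted p = 0.0263).

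Of the 3 members listed under non-homologous end joining, 0 rose and 2 fell at the 4-cell to 8-cell step (all genes 32.4% higher and 26.8% lower). With median-ratio scaling all 3 were called lower. XRCC5 (Ku80), which with XRCC6 clamps broken ends (ENSSSCG00000016177, chromosome 15, 118354943 to 118451974), was at 28.7, 14.05, 16.9, 40.5, 27.2, 31.3, 27.9 and 23.2 in IV-D, 20.1, 26.4, 23.9, 38.1, 27.97, 26.3, 19.4 and 22.2 in NT-D and 43.7, 33.1, 35.4, 24.8, 53.2, 24.9 and 22.2 in NT-LW, with no stage trend past the F test. XRCC6 (Ku70) (ENSSSCG00000000059, chromosome 5, 6903496 to 6929162), had 12.1, 8.397, 4.57, 11.5, 6.16, 4.76, 5.12 and 5.01 in IV-D, 9.73, 18.1, 13.4, 19.2, 6.23, 6.74, 4.82 and 5.66 in NT-D and 22.2, 13.7, 20.96, 5.64, 9.91, 5.32 and 5.02 in NT-LW. It fell at the 4-cell to 8-cell step (log2 difference -1.34, SE 0.32, limma adjusted p = 0.00164). LIG4, the ligase of the pathway (ENSSSCG00000009540, chromosome 11, 75537027 to 75547711), was at 8.53, 6.24, 2.699, 5.18, 2.19, 2.17, 1.29 and 1.24 in IV-D, 6.39, 8.61, 4.92, 5.69, 2.97, 3.19, 1.92 and 1.35 in NT-D and 11.9, 8.18, 5.23, 4.46, 3.48, 2.55 and 1.901 in NT-LW. It fell by 0.63 (SE 0.26, limma adjusted p = 0.0445), a call lost with a pseudocount of 0.1, with no embryo group in the model and without any 1 embryo group.

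Replication factor C, the loader of the sliding clamp, and RPA, the coat of single-stranded DNA, had 8 members. Of these 4 rose and 1 fell at the 4-cell to 8-cell step (all genes 32.4% higher and 26.8% lower). With median-ratio scaling RFC3 and RPA2 were still called higher and RFC1 lower, and RFC4 and RFC5 did not pass. RFC3 (ENSSSCG00000009349, chromosome 11, 10145927 to 10524472) was at 28.8, 21.8, 28.2, 9.91, 70.5, 82.8, 61.8 and 58.6 in IV-D, 20.7, 36.7, 34.5, 28.2, 135, 62.4, 34.8 and 39.8 in NT-D and 54.7, 34.4, 28.3, 177, 95.998, 78.6 and 57.4 in NT-LW. It rose by 2.51 (SE 0.36, limma adjusted p = 1.63e-05) and reached its highest value at the 8-cell stage in both clone groups and in the morula in IV-D. RFC5 (ENSSSCG00000009854, chromosome 14, 34630374 to 34642598) was at 2.33, 0.749, 2.38, 12.3, 29.1, 17.1, 14.9 and 12.4 in IV-D, 1.39, 1.97, 2.85, 7.84, 28.04, 14.6, 6.76 and 7.68 in NT-D and 3.99, 3.59, 9.19, 15.1, 23.8, 6.77 and 3.65 in NT-LW. It rose at 2 steps, by 1.44 (SE 0.43, limma adjusted p = 0.0197) and then by 1.19 (SE 0.43, limma adjusted p = 0.0252). Of its exon bases, 27.6% lie on those of WSB2 on the other strand. RFC4 (ENSSSCG00000011804, chromosome 13, 124589292 to 124604421) was at 107, 79.8, 37.7, 23.2, 41.7, 45.5, 50.6 and 24.01 in IV-D, 91.98, 45.7, 43.5, 16.8, 20.1, 41.3, 22.6 and 19.6 in NT-D and 90.2, 36.8, 19.8, 66.7, 58.7, 77.9 and 68.7 in NT-LW. The 4-cell library was the lowest of each group, and it rose by 0.92 (SE 0.36, limma adjusted p = 0.0351). RFC1, the largest subunit, fell by 0.72 (SE 0.28, limma adjusted p = 0.0347), while RFC2 did not pass there. RFC2 rose from the 8-cell stage to the morula by 1.25 (SE 0.43, limma adjusted p = 0.045), a call lost with median-ratio scaling. RPA3, the small subunit of RPA (ENSSSCG00000023886, chromosome 9, 77910876 to 77914872), was at 188, 259.9, 337, 75.3, 68.8, 55.6, 75.7 and 35.1 in IV-D, 182, 155, 234, 71.9, 88.5, 30.6, 45.3 and 27.02 in NT-D and 112, 156, 75.01, 93.8, 80.3, 51.2 and 38.2 in NT-LW. Every group had its highest value at the 2-cell stage and the 2-cell to 4-cell difference was -1.63 (SE 0.35, limma adjusted p = 0.00177). RPA2, the middle subunit, ranged from 53.6 to 294 and rose by 1.51 (SE 0.30, limma adjusted p = 3.18e-04), and RPA1, the large one, ranged from 5.73 to 26.3 and passed at no step.

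**Figure D3:**
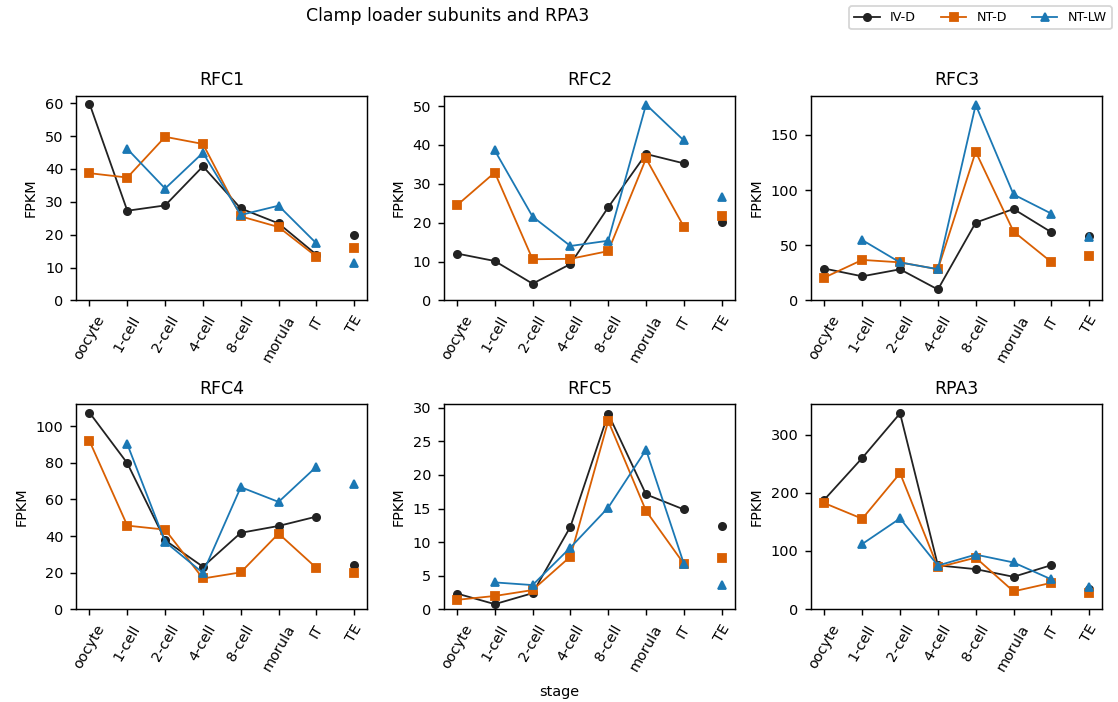
FPKM of the 5 clamp loader subunits and of RPA3 by stage, 1 library per point (IV-D circles, NT-D squares, NT-LW triangles), with lines from the first stage to IT and TE as separate points. RPA3 falls from 156 to 337 at the 2-cell stage to 71.9 to 75.3 at the 4-cell stage, and RFC4 from the 8-cell stage on is at 58.7 to 77.9 in NT-LW and 19.6 to 41.3 in NT-D.

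Among the checkpoint and damage tolerance genes, RAD17, which loads the checkpoint clamp, was at 13.8 to 23.8 FPKM in the 4-cell libraries and 45.1 to 66.9 in the 8-cell libraries, with a rise of 1.64 (SE 0.35, limma adjusted p = 7.04e-04). The clamp subunits RAD1 and RAD9B fell a step earlier. RAD1 dropped by 1.47 (SE 0.41, limma adjusted p = 0.0116), and 26.3% of its exon bases lie on those of LOC110257217 on the other strand. RAD9B (ENSSSCG00000009824, chromosome 14, 31869570 to 31903485) was at 5.35, 7.69, 10.5, 2.16, 0.934, 0.356, 0.301 and 0.502 in IV-D, 13.6, 11.5, 18.9, 6.05, 1.82, 0.397, 0.512 and 0 in NT-D and 16.6, 21.9, 7.798, 4.03, 1.14, 0.543 and 0.567 in NT-LW. It fell at 3 consecutive steps, with differences of -1.58 (SE 0.31, limma adjusted p = 8.94e-04), -0.95 (SE 0.31, limma adjusted p = 0.0146) and -0.92 (SE 0.31, limma adjusted p = 0.0439), and was listed at 0 in NT-D TE, where 3 fragments would be 0.16 FPKM. RAD18, the ubiquitin ligase that turns the sliding clamp to damage bypass (ENSSSCG00000026158, chromosome 13, 65253416 to 65359506), was at 165, 65.05, 113, 64.2, 103, 35.03, 18.2 and 20.98 in IV-D, 107, 97.8, 123, 69.8, 99.7, 40.7, 15.6 and 14.8 in NT-D and 134, 97.9, 54.3, 98.5, 53.6, 20.5 and 12.02 in NT-LW. It fell at the 2-cell to 4-cell step (log2 difference -0.82, SE 0.29, limma adjusted p = 0.0476), did not pass at the next, and fell from the 8-cell stage to the morula (log2 difference -1.22, SE 0.29, limma adjusted p = 0.00638).

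PARP12 and PARP14 add single ADP-ribose units to proteins and are best known as interferon-induced antiviral factors. PARP12 (ENSSSCG00000016502, chromosome 18, 9673841 to 9715169) was at 13.8, 47.9, 27.8, 4.05, 0.2801, 0.0525, 0.0571 and 0.133 in IV-D, 41.4, 91.1, 28.2, 6.31, 0.471, 1.21, 0.0209 and 0 in NT-D and 30.7, 68.2, 5.45, 0.934, 0.126, 0.134 and 0 in NT-LW. It fell at the 2-cell to 4-cell step (log2 difference -2.64, SE 0.39, limma adjusted p = 5.09e-05) and at the 4-cell to 8-cell step (log2 difference -2.01, SE 0.39, limma adjusted p = 2.76e-04), and 2 TE libraries had no fragment, where 3 would be 0.0426 FPKM in NT-D and 0.0376 in NT-LW. PARP14 (ENSSSCG00000011874, chromosome 13, 137809499 to 137865383) was at 34.1, 27.1, 12.1, 32.2, 0.719, 0.293, 0.142 and 0.0115 in IV-D, 25.7, 25.9, 28.3, 20.9, 0.6502, 4.06, 0.0324 and 0.0551 in NT-D and 40.6, 27.1, 21.4, 1.93, 0.3605, 0.0879 and 0.0389 in NT-LW. It kept 20.9 to 32.2 FPKM at the 4-cell stage and fell to 0.650 to 1.93 at the 8-cell stage, -3.64 (SE 0.43, limma adjusted p = 2.10e-06). A further 3 genes were matched by name and were kept in a list apart from the pathways above. RAD21, a cohesin subunit that also serves repair between sister chromatids (ENSSSCG00000006014, chromosome 4, 21772821 to 21802453), was at 12.002, 14.4, 12.7, 39.2, 58.2, 42.9, 22.2 and 28.7 in IV-D, 12.2, 13.6, 10.7, 19.2, 49.02, 42.9, 26.9 and 27.3 in NT-D and 11.2, 12.1, 21.9, 47.8, 48.4, 34.1 and 24.6 in NT-LW. It rose at the 2-cell to 4-cell and 4-cell to 8-cell steps, by 1.05 (SE 0.27, limma adjusted p = 0.00697) and 0.98 (SE 0.27, limma adjusted p = 0.00431). Neither call passed with median-ratio scaling. ERCC6L (PICH), an X-linked motor on the DNA threads of anaphase (ENSSSCG00000021834, chromosome X, 58087216 to 58117942), was at 21.8, 11.96, 8.33, 14.8, 43.1, 18.9, 5.75 and 2.49 in IV-D, 16.2, 12.6, 12.3, 17.1, 14.4, 13.3, 2.94 and 5.75 in NT-D and 20.6, 19.2, 12.8, 6.896, 11.07, 3.42 and 2.35 in NT-LW. The IV-D 8-cell library was its highest. ERCC6L2, a relative with a role in end joining (ENSSSCG00000010941, chromosome 10, 26112019 to 26264759), was at 2.9998, 2.53, 1.46, 5.06, 2.52, 2.17, 1.24 and 1.596 in IV-D, 4.697, 6.76, 4.13, 5.45, 1.71, 3.2997, 1.25 and 1.49 in NT-D and 6.89, 8.43, 6.92, 3.79, 4.36, 2.42 and 1.94 in NT-LW. It fell by 0.92 (SE 0.33, limma adjusted p = 0.0213).

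**Figure D4:**
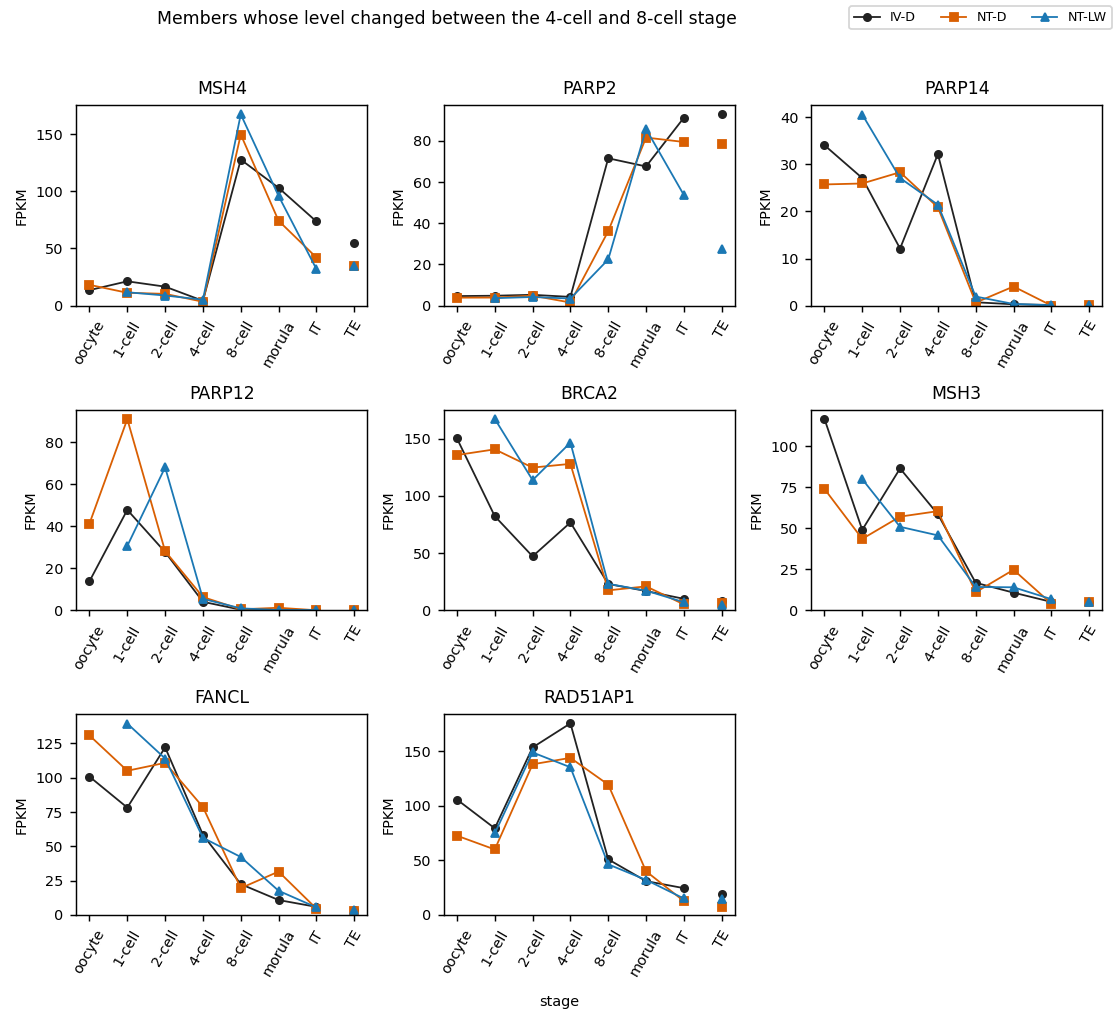
FPKM of 8 members by stage, 1 library per point (IV-D circles, NT-D squares, NT-LW triangles), with lines to IT and TE as separate points. MSH4 and PARP2 are low in all 4-cell libraries and rise by the 8-cell stage, and PARP14, PARP12, BRCA2, MSH3 and FANCL are lower in every 8-cell library than in every 4-cell library.

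The fall from the morula to IT was read in each group, by counting a member as changed between 2 libraries if their log2(FPKM + 1) lay over 1 apart, with 1 FPKM or more in the higher library. By this rule 2 members were lower in IT than in the morula in IV-D (6.3% of all genes), 26 in NT-D (32% of all genes) and 27 in NT-LW (24.2% of all genes), and 0 were higher in any group. The median of the members was -0.38, -0.97 and -1.03 in the same order, beside -0.11, -0.58 and -0.41 for all genes. With median-ratio scaling 1, 14 and 10 members were lower (2.98%, 14.6% and 9.94% of all genes) and 0, 3 and 0 higher (9.24%, 16.6% and 13.5% of all genes). Leaving out IV-D gave 28 limma calls in place of 18, leaving out NT-D 0 (6 at an unadjusted p under 0.05) and leaving out NT-LW 0 (18 unadjusted). With median-ratio scaling 2 calls were left, FANCB and FANCL. The difference between groups at this step was not tested. At the 8-cell to morula step the calls were 16 without IV-D, 1 without NT-D and 2 without NT-LW, in place of 8.

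The libraries of clones were compared with those of in vivo embryos of the same stage to see where repair transcripts differ after nuclear transfer. Each comparison sets 1 library against another, with no test, and the IV-D library of a stage served both clone groups. At the 8-cell stage NT-D had 4 members higher and 7 lower than IV-D, 21.2% of members beside 24.5% of all genes (9.38% higher and 15.1% lower), and NT-LW 5 higher and 5 lower, 19.2% beside 29.8% (14.5% higher and 15.3% lower). With median-ratio scaling NT-D had 6 higher and 4 lower, beside 11.8% and 11% of all genes. PARP1, LIG1, MSH6 and ERCC6L were those still lower. NT-LW kept 5 and 5, beside 14.6% and 13% of all genes. PARP1 was at 23.2 FPKM in IV-D, 4.66 in NT-D and 6.76 in NT-LW (1439, 271 and 333 fragments), so that NT-D was 4.98-fold and NT-LW 3.44-fold below. LIG1 was 3.61-fold and 4.75-fold below, MSH6 2.50-fold and 3.47-fold, and ERCC6L 2.997-fold and 6.26-fold. ERCC6L lies on the X chromosome, the clones were male and the IV-D pools mixed male and female embryos, so sex and group cannot be told apart for it. PARP2 was 3.19-fold below in NT-LW and had 36.2 FPKM in NT-D against 71.6. EXO1 and RFC4 passed in NT-D and not in NT-LW, at 2.15-fold and 2.07-fold below IV-D in NT-D. At the morula PARP1 was at 36.1, 35.3 and 37.6 in IV-D, NT-D and NT-LW, LIG1 at 13.8, 10.8 and 10.9, and PARP2 at 67.6, 81.7 and 85.8, none past the rule. Higher at the 8-cell stage were ERCC4 and ERCC8 in both clones, XRCC2 and RAD51AP1 in NT-D, and RFC3, RAD51B and RAD9B in NT-LW. ERCC4 had 102 and 153 fragments in NT-D and NT-LW against 9 in IV-D, and XRCC2 was 2.61-fold higher in NT-D. Oocyte transcripts summed to 23.4 FPKM in the IV-D 8-cell library, 203 in NT-D and 262 in NT-LW, and fibroblast markers to 3.68, 28.1 and 29.2. The part of oocyte and fibroblast transcripts in these differences was not tested.

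**Figure D5:**
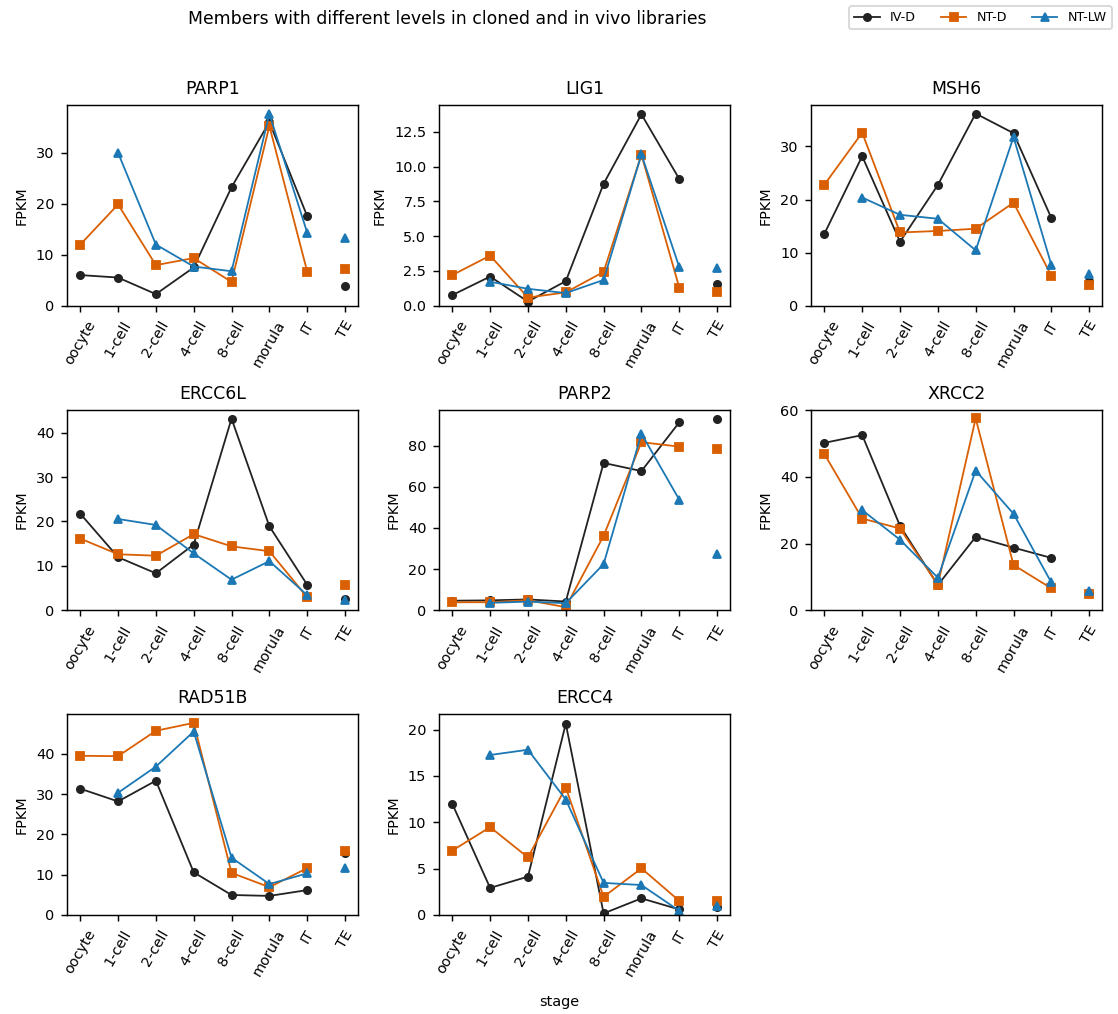
FPKM of 8 members by stage, 1 library per point (IV-D circles, NT-D squares, NT-LW triangles), with lines to IT and TE as separate points. At the 8-cell stage PARP1, LIG1, MSH6, ERCC6L and PARP2 are higher in IV-D than in either clone library, and at the morula PARP1 values lie between 35.3 and 37.6.

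At the 4-cell stage NT-D had 3 members higher and 1 lower than IV-D (all genes 20%, with 8.5% higher and 11.5% lower) and NT-LW 3 higher and 0 lower (all genes 17.7%, with 9.45% higher and 8.26% lower). RAD51B was 4.51-fold higher in NT-D and 4.30-fold in NT-LW, RFC3 2.85-fold in both, and RAD9B 2.80-fold and 3.62-fold. PARP2, which did not pass with median-ratio scaling, was the lower one, at 1.53 FPKM in NT-D (121 fragments) against 4.26 in IV-D (356 fragments). Oocyte transcripts summed to 1080, 1890 and 1874 in IV-D, NT-D and NT-LW 4-cell libraries. Fibroblast markers summed to 5.48, 127 and 145, of which S100A4 was 0, 95.3 and 114. The part of either was not tested. At the morula NT-D had 7 members higher and 0 lower (all genes 20.6%, with 17.1% higher and 3.55% lower) and NT-LW 2 higher and 0 lower (all genes 13.5%, with 10% higher and 3.5% lower). FANCL was 2.91-fold and MSH3 2.29-fold higher in NT-D, and PARP14 had 447 fragments in NT-D against 36 in IV-D. The others in NT-D were ERCC4, RAD54L2, PARP12 and RAD54B. With median-ratio scaling FANCL and PARP14 were left as higher and RPA3 was lower in NT-D, beside 11.3% and 5.71% of all genes. In NT-LW, RAD54B was 3.52-fold higher on 103 and 35 fragments. The NT-D morula library had the highest oocyte transcripts of the 3, with a sum of 221 against 7.98 in IV-D and 30.4 in NT-LW. Before any nuclear transfer, oocytes matured in vitro had 2 members higher than oocytes matured in vivo and 0 lower (11.7% of all genes). PARP12 was at 41.4 against 13.8 FPKM and RAD9B at 13.6 against 5.35. The median difference in log2(FPKM + 1) was -0.19 over the members and 0.15 over all genes. With median-ratio scaling 1 member was higher (PARP12) and 5 lower (BRCA1, ERCC4, EXO1, MSH3 and RAD54B), beside 5.34% and 5.39% of all genes.

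Across the 7 stages together, limma called 0 members different between embryo groups, in each of the 3 contrasts. Of all genes, it called 0.0246% in NT-D against IV-D, 0.246% in NT-LW against IV-D (0.185% higher and 0.0616% lower) and 0.0123% in NT-D against NT-LW. The unadjusted p was under 0.05 for 6 members (11.5%, beside 14.1% of all genes), 10 members (19.2%, beside 15.8%) and 4 members (7.69%, beside 1.92%) in the same order. The smallest p-values of NT-D against IV-D belonged to RAD51B at 0.75 (SE 0.24, limma adjusted p = 0.252), MSH4 at -0.49 (SE 0.19, limma adjusted p = 0.299), XRCC6 at 0.51 (SE 0.21, limma adjusted p = 0.308) and MSH6 at -0.56 (SE 0.24, limma adjusted p = 0.325). Those of NT-LW against IV-D were RAD9B at 0.83 (SE 0.20, limma adjusted p = 0.0951), LIG4 at 0.63 (SE 0.17, limma adjusted p = 0.117), ERCC6L2 at 0.78 (SE 0.21, limma adjusted p = 0.117) and XRCC6 at 0.63 (SE 0.21, limma adjusted p = 0.191). The median standard error of a group contrast over the members was 0.23 on the log2 scale.

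Clones of the 2 breeds were compared with each other at the 2-cell stage, the morula and TE. At the 2-cell stage NT-D had 0 members higher and 3 lower than NT-LW (13% of all genes). PARP12 was at 28.2 against 68.2 FPKM, ERCC4 at 6.21 against 17.8, and RAD54L2 at 0.953 against 3.30. None of these 3 passed with median-ratio scaling, which gave 3 others higher in NT-D (RFC1, RPA2 and RPA3) and 0 lower, beside 4.85% and 4.98% of all genes. At the morula 2 were higher, PARP14 and RAD54L2, and 2 lower, RPA3 and XRCC2 (19.4% of all genes). RPA3 was at 30.6 FPKM in NT-D and 80.3 in NT-LW, and XRCC2 at 13.6 and 28.9. The trophectoderm markers of these 2 morula libraries summed to 479 FPKM in NT-D and 53.2 in NT-LW, and their part was not tested. In TE 3 members were higher in NT-D and 2 lower (8.87% of all genes). PARP2 was at 78.5 against 27.3 FPKM, PMS1 at 18.0 against 5.82 and ERCC6L at 5.75 against 2.35, while RFC4 was at 19.6 against 68.7. With median-ratio scaling 2 members were higher and 4 lower, beside 3.85% and 5% of all genes, and ERCC6L did not pass. RFC4 was higher in NT-LW than in NT-D from the 8-cell stage on, with 66.7 and 20.1 FPKM at the 8-cell stage, 58.7 and 41.3 in the morula and 77.9 and 22.6 in IT. Over 7 stages it had the smallest p of the breed contrast, -0.95 (SE 0.24, limma adjusted p = 0.814), which did not pass. Other small p-values were those of RAD9B at -0.45 (SE 0.20, limma adjusted p = 0.999) and ERCC6L2 at -0.45 (SE 0.21, limma adjusted p = 0.999).

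Other genes of the same pathways, outside the naming rule, were read from a list of which 51 were in the table and 50 were tested. At the 4-cell to 8-cell step 13 rose and 10 fell, beside 32.4% and 26.8% of all genes. Among those higher were ATR, a kinase that answers stalled forks, NBN, a partner of RAD50, NHEJ1 and DCLRE1C of end joining, and MGMT, which removes alkyl groups from guanine. Among those lower were CHEK1, a checkpoint kinase below ATR, PALB2, which joins BRCA1 to BRCA2, RBBP8, which trims broken ends, and the glycosylases NEIL1, NEIL3 and TDG. At the 2-cell to 4-cell step 7 rose and 5 fell, beside 16.2% and 8.6% of all genes. The counts were 6 and 4 at the 8-cell to morula step, beside 14% and 6.92%. They were 2 and 8 from the morula to IT, beside 4.36% and 11.5%. None of the 50 was called in a contrast of embryo groups.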

How the data were processed

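Pools of porcine oocytes and embryos were lysed, and polyadenylated RNA was amplified (SMART-Seq v4, which keeps no strand) and sequenced as paired ends. Per the labels and the study's methods, the authors aligned reads with HISAT2 to Sscrofa11.1, counted them with HTSeq and deposited FPKM. The FPKM table holds 8603 genes, 7371 with a symbol. How they were chosen is not given in the sources used here. The name of the deposit points to differentially expressed genes, so shares of all genes may be higher than genome-wide ones. Columns of the authors' own comparisons were not used. Whole fragments were recovered from the FPKM for 8592 genes (within 0.01 of a whole number). Fragments per library bound counting error only.

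Stages and embryo groups were fitted with limma 3.58.1 (R 4.3.3, lmFit and eBayes with trend) on log2(FPKM + 1), additively, in 21 libraries without the oocytes, for genes with a mean FPKM of at least 1, with Benjamini-Hochberg adjustment over 8118 genes and a threshold of 0.05. The scripts were tested on simulated data. With 1 library per condition, pairs of libraries were compared by size only: a difference over 1 on that scale with at least 1 FPKM in either. Alternatives were a pseudocount of 0.1, no filter, a minimum of 5 FPKM in a pair, median-ratio scaling, a model with no embryo group or no stage, leaving out each embryo group or stage, and an exact binomial test of fragments, which compares libraries and not conditions. Values in every library were given for the member of each role with the highest FPKM and that with the largest F for stage, the 4 largest differences each way at the 2-cell to 4-cell and 4-cell to 8-cell steps, the 4 smallest p of each group contrast, and the 2 largest changes each way in each pair of libraries. The members and lists were chosen with earlier results of these data known. The values of 4 members are not reported here, by name or in the plots, and stay in the counts.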

Additional observations from a re-analysis of the deposited data

Results flagged for a closer look

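In 2 members the embryo groups moved in opposite directions at a step, each by a single pair of libraries, and the difference was not tested. From the 1-cell to the 2-cell stage the difference of PARP12 in log2(FPKM + 1) was -0.765 in IV-D and -1.66 in NT-D, and 1.13 in NT-LW. From the 8-cell stage to the morula that of PARP14 was -0.410 in IV-D and -1.11 in NT-LW, and 1.62 in NT-D.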

How the results depend on the processing

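No pairing by replicate number was possible because each condition had 1 library. The number 1 that some titles carry is the only replicate number, so the groups share fewer than 2. Stages were set against each other within embryo groups by the additive fit. That fit entered IT and TE, parts cut from blastocysts, as separate stages. No called difference of a member turned its direction under any alternative run. The cause of the changes listed here was not tested. With a pseudocount of 0.1, 4 members passed the fold rule between oocytes, 5 between NT-LW and IV-D morulae, and 6, 8 and 10 between clones at the 2-cell stage, morula and TE, and 4 were called from the 8-cell stage to the morula. With median-ratio scaling 6 passed between oocytes (1 higher and 5 lower in those matured in vitro), 3 between NT-D and IV-D morulae and 1 between NT-LW and IV-D morulae, and 2 were called from the morula to IT. With a minimum of 5 FPKM 4 passed between NT-D and IV-D morulae and 2 between clone morulae. By the exact binomial test of fragments 4 passed between oocytes, 7 between NT-LW and IV-D morulae, and 7, 7 and 11 between clones at the 2-cell stage, morula and TE. Leaving out 1 embryo group gave 5 to 10 calls at the 2-cell to 4-cell step, 15 to 29 at the 4-cell to 8-cell step, 1 to 16 from the 8-cell stage to the morula and 0 to 28 from the morula to IT. Median-ratio scaling moved the median of all genes by 0.26, -0.21, -0.22, -0.21, 0.36 and 0.11 at the steps in order of development.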
